A study of Mus musculus with 6 samples.

Results

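The 50 genes described here encode the machinery that copies DNA in S phase, and were taken as a named list. The list was chosen with earlier results of these data known. All 50 had a row among the 13965 rows of the deposited expression table, and all 50 passed the filter on low values, which 13766 rows passed. RNA was sequenced from whole mouse kidneys at embryonic day 16. Each of 3 litters gave 1 control library, which is WT with miR-17~92 flx/+, and 1 mutant library, which carries Six2-TGC and is flx/flx at miR-17~92. Six2-TGC is a transgene in which Six2 regulatory sequence drives a GFP-Cre fusion in nephron progenitors, so the floxed microRNA cluster is removed in these cells and their descendants, while stroma, vessels and ureteric bud keep it. The label of the controls names a single floxed allele and no transgene, so the transgene and the deletion cannot be told apart here. The labels do not say whether a library holds 1 embryo or several.

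Replication starts at origins, where the origin recognition complex, with Cdc6 and Cdt1, loads the MCM helicase in G1. Cdc45 and the GINS complex then switch the helicase on, primase and polymerase alpha lay down primers, and polymerases delta and epsilon extend them on the PCNA sliding clamp. Transcription of many of these genes is driven by E2F factors as cells enter S phase. The embryonic kidney holds many dividing cells, among them the nephron progenitors at its rim, and every dividing cell type of the organ uses these genes.

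Values are CPM, reads scaled to the library total. The totals, inferred from the step between CPM values, were between 43804667 and 54913325 reads. A replication gene other than Fen1 had at least 564 reads in every library. Six2, a marker of the targeted progenitors, averaged 50.6 ± 7.95 CPM (SD, n = 3) in controls and 38.6 ± 6.68 CPM in mutants (log2 difference -0.39, adjusted p = 0.00626 by limma paired by litter, 0.354 without the pairing). The row of Mir17hg, the host transcript of the deleted cluster, was higher in mutants, at 46.0 ± 7.01 against 31.2 ± 7.18 CPM (adjusted p = 0.0292, 0.222 without the pairing). That row joins the transcript with its microRNA genes, so it does not check the deletion itself.

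Mcm7 links the list to the deleted cluster, because a related microRNA cluster, miR-106b~25, lies inside it. The Mcm7 gene spans chr5:138164583-138172422 on the minus strand (GRCm38), and GENCODE M21 places Mir106b, Mir93 and Mir25 in its introns. The mature sequences below, from RefSeq on GRCm38.p6, are shown so that the seeds can be compared, with the seed (bases 2 to 8) in capitals. The first 6 belong to the deleted cluster on the plus strand of chromosome 14, and the last 3 to the cluster inside Mcm7.
miR-17-5p: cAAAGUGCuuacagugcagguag
miR-20a-5p: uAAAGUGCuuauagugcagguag
miR-18a-5p: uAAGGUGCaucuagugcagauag
miR-19a-3p: uGUGCAAAucuaugcaaaacuga
miR-19b-3p: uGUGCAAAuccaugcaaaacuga
miR-92a-3p: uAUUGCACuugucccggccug
miR-106b-5p: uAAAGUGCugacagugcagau
miR-93-5p: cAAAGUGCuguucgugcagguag
miR-25-3p: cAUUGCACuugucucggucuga

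miR-17, miR-20a, miR-106b and miR-93 share the seed AAAGUGC. miR-92a and miR-25 share AUUGCAC. The deposited Mcm7 row joins Mcm7 with Mir93 and Mir25, and mature microRNAs are shorter than the RNA such libraries keep, so nothing is known here of the microRNAs themselves.

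Promoters of the list were rich in E2F motifs. RefSeq windows on GRCm38.p6, from 250 bases before to 50 bases after a gene start, were found for 42 of the 50 genes. An E2F motif (TTTCCCGC, TTTGGCGC, TTTCGCGC or TTTGCCGC on either strand) was present in 18 of the 42 (42.9%), against 2.6% of 27025 genes and 4.7% of 10133 tested rows that hold 1 gene. The CCAAT box (CCAAT on either strand) was present in 27 of the 42 (64.3%), against 41.1% of all genes. Both motifs stood together in 11 of the 42 (26.2%), against 1.3% of all genes. These matches describe letters in a window and not bound sites.

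The windows of 3 genes show the range, with matches to either motif in capitals. Mcm6, a subunit of the helicase, has 3 E2F matches, of which 2 overlap on opposite strands. Pcna and Mcm10, the genes called lower in mutants, have no complete E2F match in the window, with 1 and 3 CCAAT matches. The Mcm10 window ends in TTTGGCG, the start of an E2F motif, and the next base was not searched. All 3 windows lie on the minus strand, at chr1:128359656-128359955 for Mcm6, chr2:132253131-132253430 for Pcna and chr2:5012742-5013041 for Mcm10.
Mcm6: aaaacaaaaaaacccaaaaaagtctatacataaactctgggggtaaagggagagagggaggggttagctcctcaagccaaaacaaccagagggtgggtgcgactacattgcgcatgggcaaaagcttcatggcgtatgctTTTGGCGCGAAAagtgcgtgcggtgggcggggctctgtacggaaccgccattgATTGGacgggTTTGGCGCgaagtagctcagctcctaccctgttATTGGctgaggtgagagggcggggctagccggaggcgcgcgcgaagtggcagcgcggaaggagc
Pcna: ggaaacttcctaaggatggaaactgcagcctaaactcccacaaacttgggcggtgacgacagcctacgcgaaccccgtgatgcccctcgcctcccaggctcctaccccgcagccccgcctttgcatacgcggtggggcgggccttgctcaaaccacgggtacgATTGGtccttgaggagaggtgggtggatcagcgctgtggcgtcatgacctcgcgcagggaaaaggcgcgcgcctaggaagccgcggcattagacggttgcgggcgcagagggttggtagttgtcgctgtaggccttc
Mcm10: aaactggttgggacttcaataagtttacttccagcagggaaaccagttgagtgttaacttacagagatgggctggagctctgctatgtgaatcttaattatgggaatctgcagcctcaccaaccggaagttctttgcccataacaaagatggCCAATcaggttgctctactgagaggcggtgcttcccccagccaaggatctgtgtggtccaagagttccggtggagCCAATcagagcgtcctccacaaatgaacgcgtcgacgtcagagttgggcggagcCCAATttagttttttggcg

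Few replication genes passed the test between control and mutant kidneys. In the comparison paired by litter, 2 of the 50 genes passed an adjusted p of 0.05, Pcna and Mcm10, and both were lower in mutants. That is 4% of the list, against 11.4% of all tested rows called in either direction, 3.51% called lower and 7.93% called higher. None of the 50 was called higher. At an unadjusted p under 0.05 by limma, 16 of the 50 were lower and 3 higher, together 38% of the list against 29.2% of all tested rows. Without the pairing limma called 0 of the 50, with 1 at an unadjusted p under 0.05, against 0.559% of all tested rows called.

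The calls rested on which litters entered. Without litter 1, when 0.479% of all rows were called lower and 1.73% higher, none of the 50 genes was called, and the adjusted p was 0.0815 for Pcna and 0.253 for Mcm10. Without litter 2 neither was called (adjusted p = 0.0728 and 0.0997, with 3.23% of rows called lower), while Pole was called higher (adjusted p = 0.0207, with 6.87% of rows called higher). Without litter 3, 6 genes were called lower, namely Gmnn, Gins4, Mcm10, Pcna, Rfc4 and Pold3, against 5.85% of rows. In every fit limma pools the spread over rows, and with 2 litters left it has less of each gene's own spread to draw on.

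The differences were small and leaned to one side. The fitted log2 difference, mutant minus control, ran from -0.23 for Gmnn to 0.18 for Pole, with a median of -0.08 over the list and 0.01 over all tested rows. It was below 0 for 40 of the 50 genes (80%), against 46.9% of all tested rows. The median over the list was -0.06, -0.11 and -0.08 in litters 1, 2 and 3, where the medians over all rows were 0.00, 0.02 and 0.02. Of the genes, 30 were lower in all 3 litters, and 5 were higher in all 3, against 22.2% and 28.3% of all rows. These counts describe the list and are not a test of it, since genes that serve S phase together are not independent of each other.

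The precision allows a bound on most genes. For 46 of the 50, the 95% interval of the difference lay within 1.3-fold in both directions. The intervals of Orc1, Gmnn, Mcm8 and Fen1 reached below that bound, and among all 50 the interval of Fen1 alone passed it above. The median standard error was 0.0504 over the list and 0.0697 over all rows. Without the pairing it was 0.0989 over the list. In whole kidneys, fewer cells in S phase and less replication RNA per cell cannot be told apart.

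**Figure D1:**
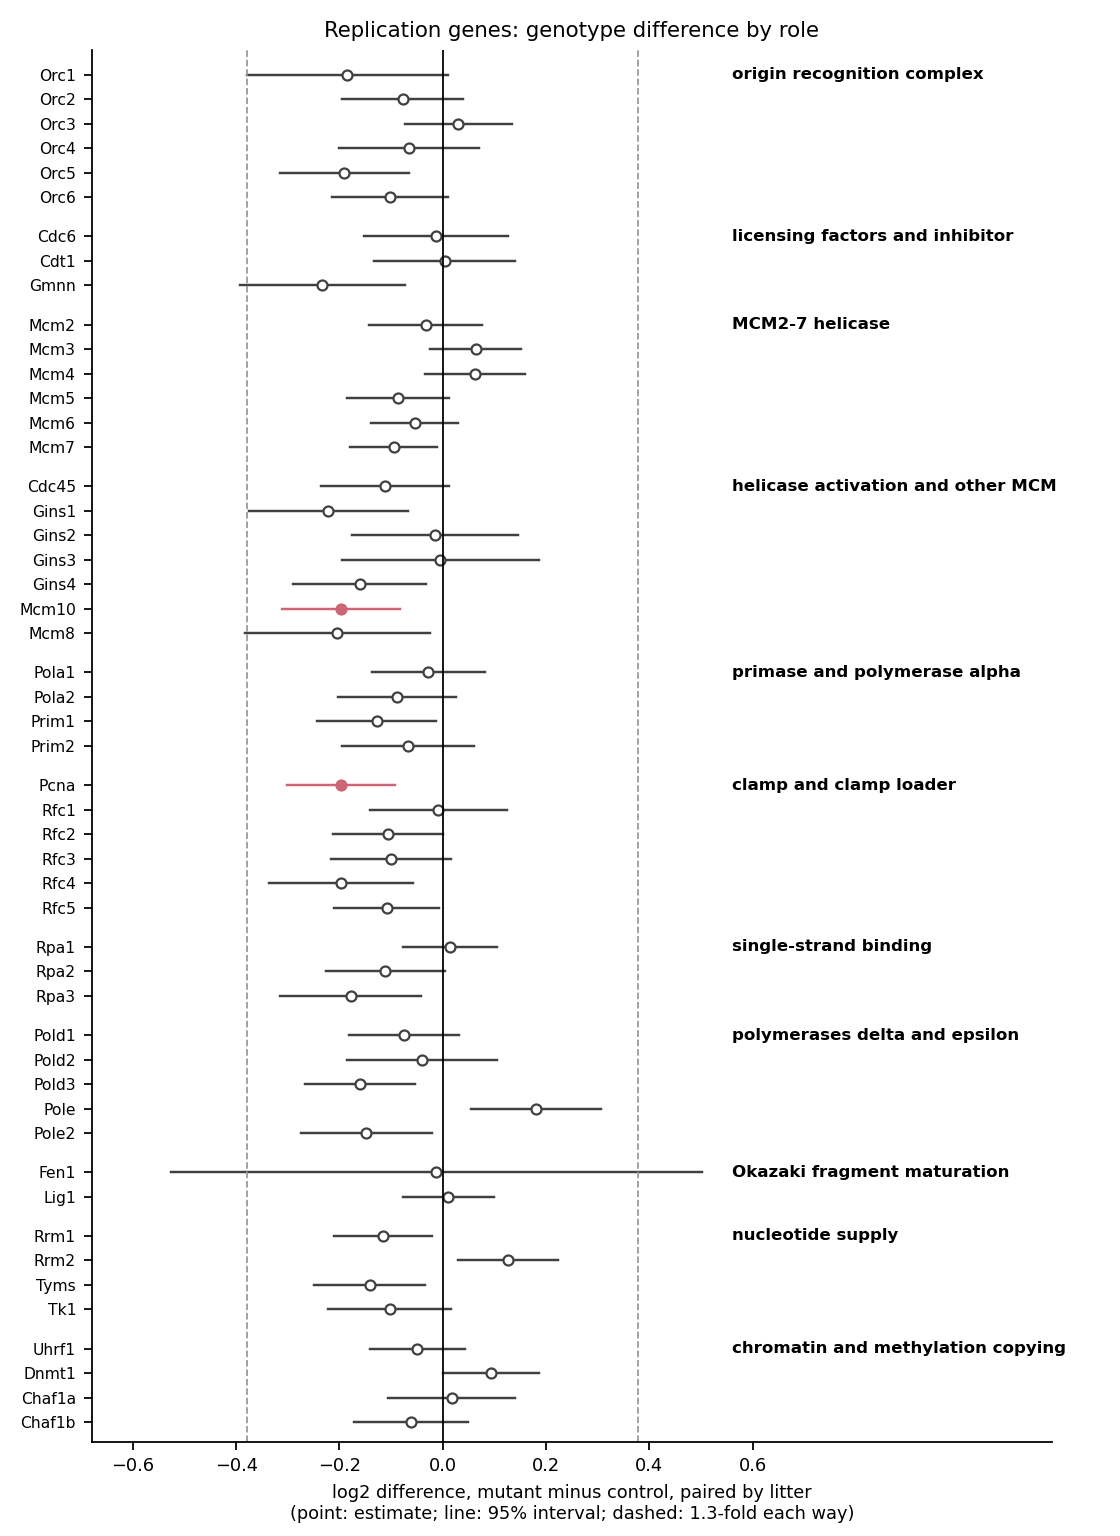
Log2 difference between mutant and control kidneys, paired by litter, for each of the 50 replication genes grouped by role; points are estimates, lines 95% intervals, and dashed lines 1.3-fold in either direction. Filled points are Pcna and Mcm10, the genes called lower, and 46 intervals lie within the dashed lines.

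The origin recognition complex marks replication origins, and none of its 6 genes passed the test. Of the 6 differences, 5 were below 0, with a median of -0.09. Orc5, an ATP-binding subunit, was measured in a row joined with Gm15421. It stood at 78.7, 66.2 and 66.3 CPM in the controls of litters 1, 2 and 3, and at 73.6, 57.4 and 54.8 CPM in the mutants. The groups overlapped because both litter 1 libraries were high, and the mutant was lower in each litter (log2 difference -0.19, SE 0.0549, adjusted p = 0.0601). Orc3 was the most abundant of the 6, with 137.9, 109.7 and 115.9 CPM in controls and 134.4, 113.9 and 122.1 CPM in mutants. Its groups overlapped almost wholly (log2 difference 0.03, adjusted p = 0.702). Per kilobase of transcript, levels within the complex ranged from 4.48 CPM for Orc1, the largest subunit, to 53.2 CPM for Orc3.

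Licensing is carried out by Cdc6 and Cdt1 and blocked by geminin, the product of Gmnn, which binds Cdt1. Gmnn had the most negative difference of the whole list. Its controls stood at 63.8, 63.0 and 52.3 CPM and its mutants at 54.9, 47.3 and 49.5 CPM. Control 3 lay below mutant 1, so the groups overlapped, and the difference of -0.23 (SE 0.0697) did not pass the test (adjusted p = 0.0666). The licensing factors themselves differed less. Cdc6 differed by -0.01 (95% interval -0.15 to 0.13) and Cdt1 by 0.00 (95% interval -0.13 to 0.14).

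The 6 subunits of the replicative helicase, Mcm2 to Mcm7, were among the most abundant members and none was called. Their summed level was 1583 to 1732 CPM in controls and 1520 to 1684 CPM in mutants. Mcm7 led them, at 391.5, 434.4 and 344.1 CPM in controls and 369.1, 397.7 and 326.9 CPM in mutants. The mutant was lower in each litter, yet litter 2 was highest and litter 3 lowest in both genotypes, so the groups overlapped (log2 difference -0.10, SE 0.0368, adjusted p = 0.129). Mcm3 and Mcm4 leaned the other way, at 0.06 each, without passing the test (adjusted p = 0.315 and 0.363). Mcm6, chosen after its values were seen, was tight within groups, at 363.7, 352.6 and 356.9 CPM in controls and 351.1, 342.4 and 339.7 CPM in mutants. Its groups did not overlap, but the difference was only -0.05 (adjusted p = 0.357). Per kilobase, the subunits ranged from 53.5 CPM for Mcm2 to 127 CPM for the joined row of Mcm7, although the proteins act as a ring with equal numbers of each.

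Factors that activate the helicase, with the related Mcm8, had the lowest median of the roles with more than 3 members, at -0.16, and all 7 differences were below 0. Mcm10 (ENSMUSG00000026669), which helps the assembled helicase to unwind the origin, was the member called. It stood at 79.8, 76.5 and 68.2 CPM in controls and fell to 67.7, 66.0 and 61.7 CPM in mutants. Every mutant lay below every control, though control 3 and mutant 1 were nearly equal (log2 difference -0.20, SE 0.0498, adjusted p = 0.0407, 0.471 without the pairing). Gins1, a GINS subunit, had controls at 40.7, 40.4 and 40.0 CPM and mutants at 38.5, 32.2 and 33.3 CPM. The controls were almost identical and the mutants lower and more spread, and the difference of -0.22 (SE 0.0675) missed the threshold (adjusted p = 0.0709). GINS works as a complex, and its other subunits differed by -0.02 for Gins2, 0.00 for Gins3 and -0.16 for Gins4 (adjusted p = 0.101). Cdc45, the most abundant of this group, had controls at 83.2, 84.0 and 72.3 CPM and mutants at 77.4, 72.4 and 71.3 CPM (log2 difference -0.11, adjusted p = 0.212). Its mutants overlapped control 3. Mcm8, which acts in DNA repair and in meiosis, differed by -0.20 (adjusted p = 0.126) and was low, with 18.8 CPM in mutant 3 and 25.1 CPM in control 1.

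Primase and polymerase alpha start each new strand, and none of their 4 genes passed the test, with all differences below 0 and a median of -0.08. Prim1, the catalytic primase subunit, had 129.8, 112.0 and 106.0 CPM in controls and 124.6, 95.2 and 99.3 CPM in mutants. Both litter 1 libraries were the highest of their genotype, so the groups overlapped (log2 difference -0.13, SE 0.0504, adjusted p = 0.135). Pola1, the catalytic subunit of the polymerase, differed by -0.03 (adjusted p = 0.743).

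The sliding clamp and its loader were below 0 for all 6 genes, with a median of -0.11, and Pcna was called. Pcna (ENSMUSG00000027342) encodes the ring that holds the polymerases on DNA and was the most abundant gene of the list, both in CPM and per kilobase (399 CPM per kilobase). Controls of litters 1, 2 and 3 stood at 652.5, 693.1 and 594.7 CPM, and mutants fell to 615.0, 566.8 and 511.8 CPM. Mutant 1 lay above control 3, so the groups overlapped, and within each litter the mutant was lower (log2 difference -0.20, SE 0.0453, adjusted p = 0.0305, 0.425 without the pairing). The loader genes Rfc2 to Rfc5 differed by -0.11, -0.10, -0.20 and -0.11, with none called, and Rfc1, the large subunit, by -0.01. Rfc5 was tight, with controls from 103.5 to 104.9 CPM and mutants from 95.4 to 97.9 CPM (adjusted p = 0.149).

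Replication protein A coats single-stranded DNA at the fork through 3 subunits, none of which was called. Rpa1, the large subunit, was the steadiest gene of this role, at 175.5, 181.3 and 178.3 CPM in controls and 177.9, 183.6 and 178.8 CPM in mutants. The groups overlapped and the difference was 0.01 (95% interval -0.08 to 0.10, adjusted p = 0.856). Rpa3, the small subunit, had controls at 59.0, 61.9 and 55.0 CPM and mutants at 56.5, 51.0 and 47.9 CPM. Mutant 1 lay above control 3 (log2 difference -0.18, SE 0.0597, adjusted p = 0.0903).

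Polymerases delta and epsilon copy the bulk of the genome, and their 5 genes held both the most positive difference of the list and several negative ones. Pole, the catalytic subunit of epsilon, stood at 108.0, 112.7 and 92.2 CPM in controls and 121.3, 118.2 and 114.3 CPM in mutants. All mutants lay above all controls, without passing the test (log2 difference 0.18, SE 0.055, adjusted p = 0.0702). Pole2, its partner subunit, differed by -0.15 (adjusted p = 0.118). Pold3, an accessory subunit of delta, had controls from 103.1 to 104.6 CPM and mutants from 90.6 to 96.1 CPM, with no overlap (log2 difference -0.16, adjusted p = 0.062). Subunits of polymerase epsilon had differences of opposite sign, although the difference between Pole and Pole2 was not tested. Both were nearer 0 with the correction for length and GC content described below. Pole was then at 0.04 (adjusted p = 0.679 by limma) and Pole2 at -0.06 (adjusted p = 0.547).

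Okazaki fragments are finished by the flap nuclease Fen1 and by DNA ligase, and neither gene was called. Lig1 was level, at 259.6, 271.2 and 243.6 CPM in controls and 256.1, 273.3 and 250.4 CPM in mutants (log2 difference 0.01, 95% interval -0.08 to 0.10, adjusted p = 0.888). Fen1 was the least abundant gene of the list, with 0.959, 2.14 and 1.21 CPM in controls and 1.41, 1.13 and 1.56 CPM in mutants. It had as few as 42 reads in a library, and per kilobase it stood at 0.591 CPM against 81.6 CPM for Lig1. The cause of this low level was not tested. Its difference of -0.01 has a 95% interval from -0.53 to 0.50, so a change of the size seen in Pcna was not detectable at this depth.

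Nucleotide supply comprises both subunits of ribonucleotide reductase, thymidylate synthase and thymidine kinase, with none called. Rrm1, the large reductase subunit, had 371.5, 343.6 and 369.0 CPM in controls and 350.3, 328.8 and 321.5 CPM in mutants. It was lower in each litter, with overlap between groups (log2 difference -0.12, SE 0.0417, adjusted p = 0.108). Rrm2, the small subunit, is described because its values were seen to run the other way. It had 166.1, 179.4 and 183.3 CPM in controls and 189.5, 191.0 and 196.2 CPM in mutants. All mutants lay above all controls (log2 difference 0.13, SE 0.0424, adjusted p = 0.0914). Tyms, which makes thymidylate, had controls at 158.4, 154.7 and 164.5 CPM and mutants at 150.0, 143.0 and 139.7 CPM. Its groups did not overlap (log2 difference -0.14, adjusted p = 0.0871).

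Genes that copy chromatin and DNA methylation behind the fork were split, with 2 of 4 differences below 0 and none called. Dnmt1, the maintenance methyltransferase, had 291.3, 342.9 and 317.9 CPM in controls and 319.9, 348.4 and 345.8 CPM in mutants. The mutant was higher in each litter, with overlap (log2 difference 0.09, SE 0.0404, adjusted p = 0.169). Uhrf1, which recruits Dnmt1 to newly copied DNA, differed by -0.05, and the chromatin assembly subunits Chaf1a and Chaf1b by 0.02 and -0.06.

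Across all roles, groups did not overlap for 9 of the 50 genes. Mutants lay below controls for 7 of them (Mcm6, Gins1, Gins4, Mcm10, Rfc5, Pold3 and Tyms), against 7.12% of all tested rows, and above for Pole and Rrm2, against 10.2%.

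**Figure D2:**
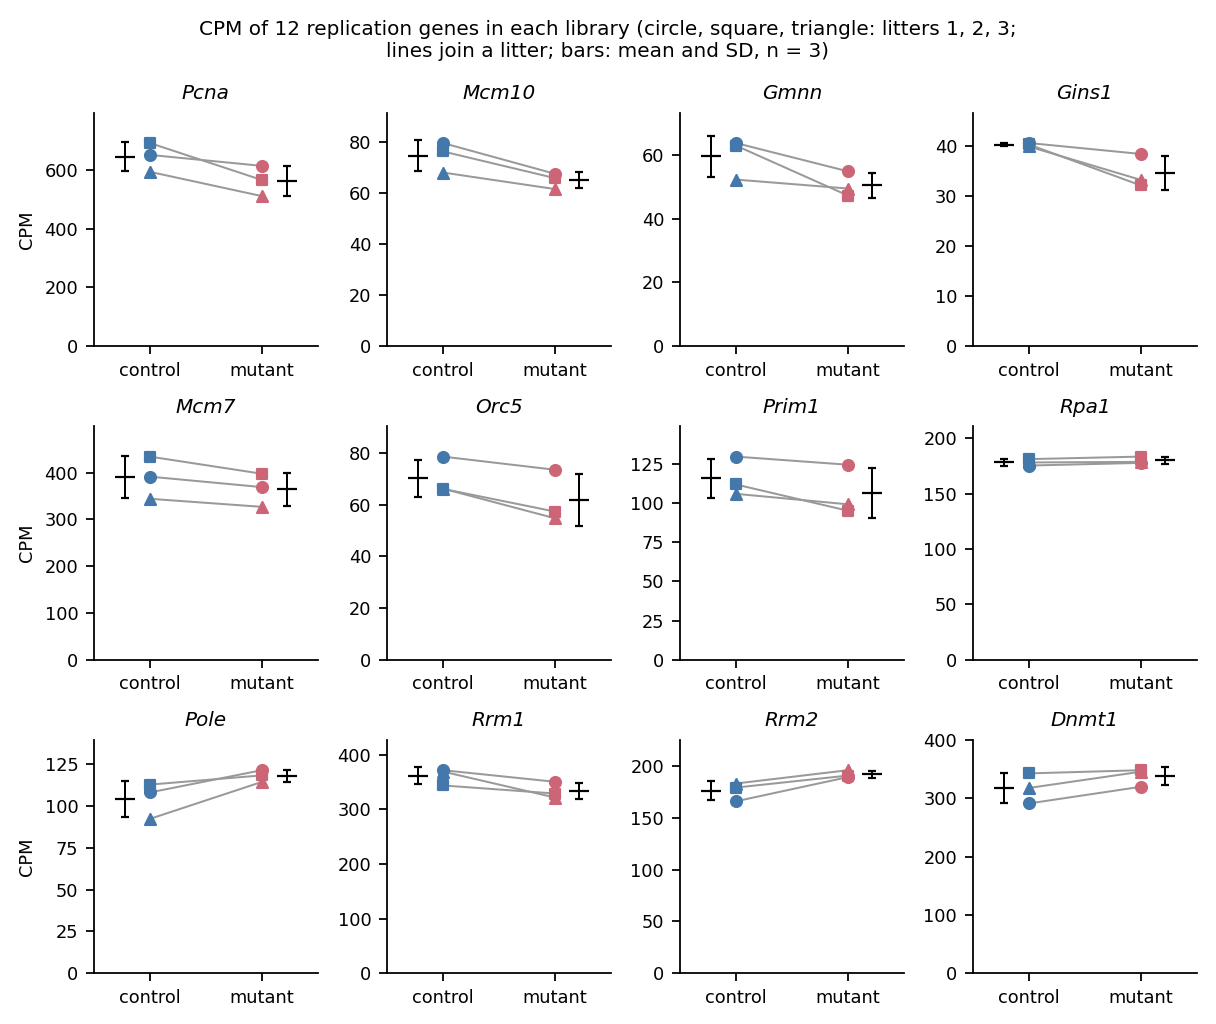
CPM of 12 replication genes in each library, on axes that start at 0; circles, squares and triangles are litters 1, 2 and 3, grey lines join a litter, and bars give the mean and SD of 3 libraries. Pcna and Mcm10 fall in each litter, while Rpa1 stays between 175.5 and 183.6 CPM.

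For most replication genes, litters spread more widely than genotypes. The range of the litter means on the log2 scale had a median of 0.20 over the list, against a median absolute genotype difference of 0.09. The litter range was the larger for 37 of the 50 genes, and for 77.0% of all tested rows, although a range over 3 means tends by its construction to be wider than a difference of 2. Litter 1 was highest for 25 genes, litter 2 for 21 and litter 3 for 4. All 6 origin recognition genes were highest in litter 1, as were Pola1, Prim1 and Rfc1, whereas Mcm2, Mcm7, Pold1 and Uhrf1 were highest in litter 2. Pola1 shows the first pattern, with 120.2 and 124.5 CPM in the control and mutant of litter 1 and 86.6 to 98.0 CPM in the other litters. Pold1, the catalytic subunit of polymerase delta, shows the second, with 98.1 and 93.6 CPM in litter 1 and 125.6 and 114.2 CPM in litter 2. Summed over the 50 genes, controls held 6732.1, 6917.2 and 6424.2 CPM and mutants 6587.1, 6492.4 and 6162.2 CPM. Within each litter the mutant sum was the lower, and across litters the sums overlapped.

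**Figure D3:**
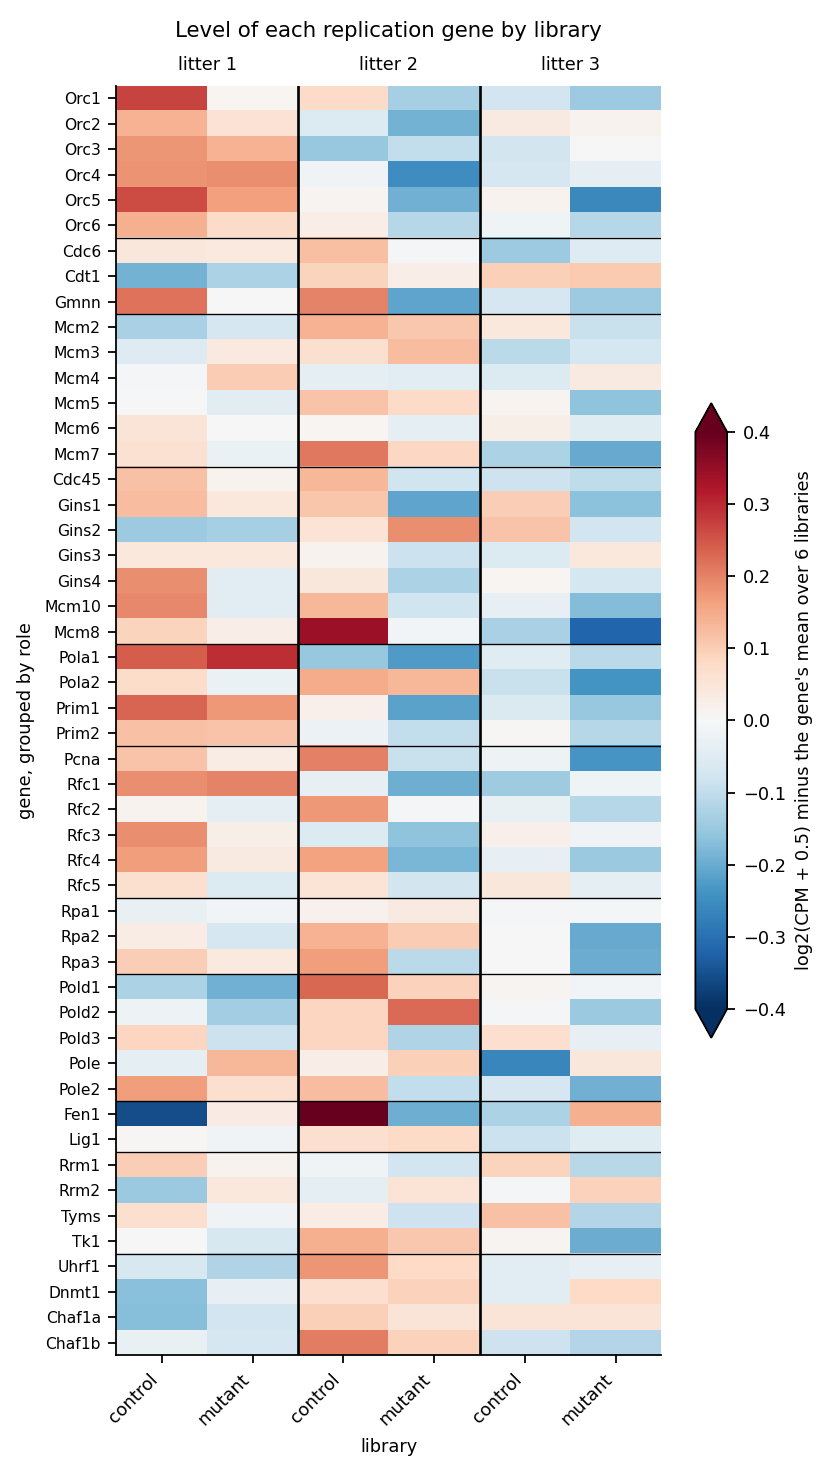
Level of each replication gene in the 6 libraries, as log2(CPM + 0.5) minus the gene's mean over the libraries, with litters side by side and genes grouped by role. The range of the litter means exceeds the fitted genotype difference for 37 of the 50 genes, and for 77.0% of all tested rows. The 6 origin recognition genes at the top are all highest in litter 1.

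Differences also followed transcript length, in the list as in the table as a whole. Taken across genes, which share these libraries and do not replicate each other, the Spearman correlation of length with the genotype difference was 0.441 over 13517 rows and 0.508 over the 50 genes. The median difference ran from -0.11 in the shortest decile of rows (median 1028 bases) to 0.17 in the longest (median 8344.5 bases). Gmnn (1127 bases), Gins1 (1087 bases) and Rpa3 (670 bases) are short members with negative differences, and Pole (7163 bases) and Dnmt1 (5870 bases) are the longest, with positive ones. The list as a whole is close to the table in length, with a median of 2988 bases against 3210. Rows between 1840.2 and 3822.2 bases, the middle range of the list, had a median difference of -0.01 over 5603 rows.

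When length and GC content were corrected in each library, rho over all rows was 0.00886 and the list kept its lean. The median over the list was -0.06, and 40 of the 50 genes were below 0, against 45.4% of all rows, whose median was 0.01. Single genes moved. Mcm10, a long transcript of 4867 bases, went to -0.26 (adjusted p = 0.0169). Pcna (1518 bases) went to -0.10 and lost its call (adjusted p = 0.177). Rrm2 went to 0.18 and was called higher (adjusted p = 0.0341), and Pole went to 0.04 (adjusted p = 0.679). The call of Pcna therefore holds without this correction and not with it, and that of Mcm10 holds with both. After correction 6.28% of all rows were called, 4.25% higher and 2.03% lower. Whether the trend on length is technical was not tested.

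**Figure D4:**
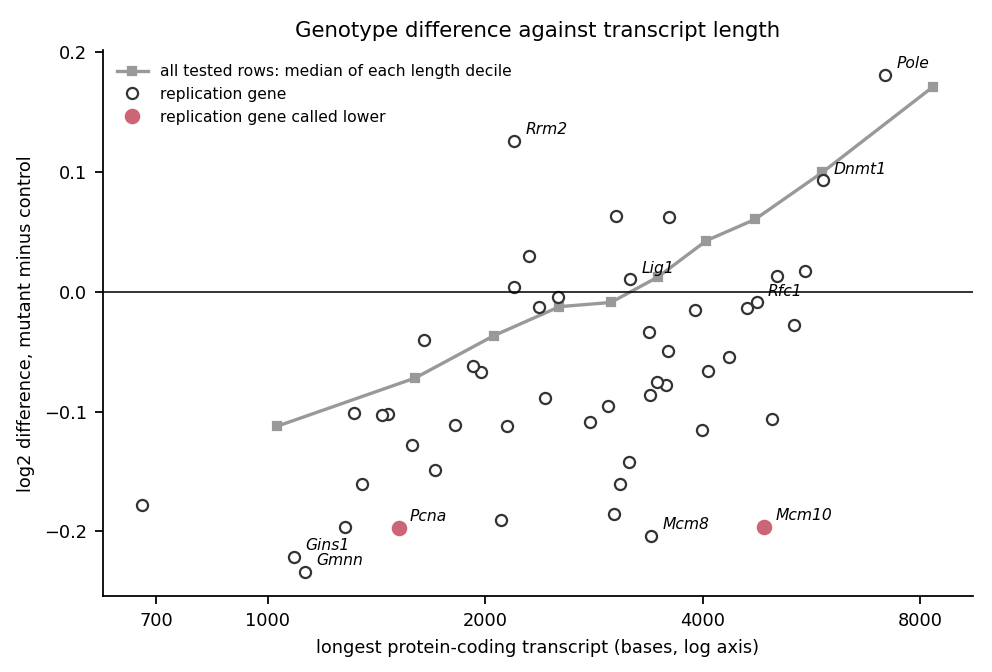
Log2 difference between mutant and control kidneys against the length of the longest protein-coding transcript (log axis), for the 50 replication genes (circles, filled where called lower) and as medians of length deciles of all tested rows (grey squares). Pole and Dnmt1 lie near the grey line at its long end, and Mcm10 and Mcm8 lie well below it.

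In the comparison paired by litter and without correction, calls among other genes of replication, outside the 50, were all in the lower direction. Of 52 such genes 51 were tested, and 6 were lower and 0 higher (11.8%), against 11.4% of all tested rows called in either direction and 3.51% called lower. Without the pairing 0 of the 51 were called. After correction for length and GC content 3 were called, of which only Rnaseh2a and the row of Donson were among the 6. The most negative was Rnaseh2a, the catalytic subunit of the enzyme that removes RNA from DNA. It had 97.2, 96.9 and 92.2 CPM in controls and fell to 72.8, 82.0 and 72.9 CPM in mutants, with no overlap (log2 difference -0.33, SE 0.052, adjusted p = 0.00896). With the correction Rnaseh2a stayed at -0.33 (adjusted p = 0.00853). Its partner Rnaseh2c fell by 0.24 on the log2 scale (adjusted p = 0.0388). Pclaf, which binds the PCNA ring, fell by 0.20 (adjusted p = 0.0229), Dtymk, the thymidylate kinase, by 0.18 (adjusted p = 0.0353), and Pole3, a small subunit of polymerase epsilon, by 0.23 (adjusted p = 0.0453). The row of Donson, a factor that helps to load the helicase activators, fell by 0.18 (adjusted p = 0.0253), but it is joined with Atp5o and cannot be assigned to either gene. With the correction the Donson row kept its call (adjusted p = 0.0442), while Rnaseh2c (-0.12, adjusted p = 0.216), Pclaf (-0.13, adjusted p = 0.092), Dtymk (-0.08, adjusted p = 0.317) and Pole3 (-0.16, adjusted p = 0.142) lost theirs. The median over the 51 was -0.04.

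Markers of dividing cells and of kidney lineages are given beside these genes, paired by litter, where 7.93% of all tested rows were called higher and 3.51% lower. Of 18 markers of proliferation and mitosis, 3 were called lower and 0 higher, with a median of -0.09. Ccnb1 and Cdk1, which drive entry into mitosis, fell by 0.21 each (adjusted p = 0.0216 and 0.0257), and Ube2c, which serves exit from it, by 0.17 (adjusted p = 0.0437). Without the pairing 0 of the 18 were called, and with the length and GC correction Cdk1 kept its call (adjusted p = 0.0158) while Ccnb1 and Ube2c lost theirs (adjusted p = 0.0631 and 0.133). Mki67, chosen after its values were seen, varied widely, from 225 to 401 CPM in controls and from 253 to 432 CPM in mutants. Summed over the 18, controls held 3569 to 4232 CPM and mutants 3343 to 4058 CPM, which overlap.

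Nephron progenitor markers had a more negative median than the replication genes. This marker list was chosen with earlier results of these data known, so its median and calls describe it and are not a test. Of 14 markers, 9 were lower and 0 higher, with a median of -0.37, and their sum was 1085 to 1123 CPM in controls and 810.2 to 847.9 CPM in mutants. The sums of the stromal, endothelial, proximal tubule and ureteric bud markers were higher in mutants. They were 2869 to 3158 against 3363 to 4013 CPM for 10 stromal markers (3 called higher), 882.9 to 918.5 against 1027 to 1037 CPM for 8 endothelial markers (5 called higher), 684 to 777.1 against 874 to 1067 CPM for 8 proximal tubule markers (6 called higher), and 1109 to 1134 against 1189 to 1285 CPM for 12 ureteric bud markers (5 called higher). Of 10 macrophage and leukocyte markers 1 was called higher, with sums of 123.2 to 133.8 against 132.7 to 165.2 CPM. Erythroid markers, of which 11 of 19 were tested, had no call in either direction and sums of 1012 to 1204 against 915.3 to 1101 CPM. Without the pairing, 5 progenitor markers were called lower, and 2 stromal and 1 proximal tubule marker higher, with 0 called in the ureteric bud, endothelial, macrophage and erythroid lists. With the length and GC correction, Foxd1, Flt1, Lrp2, Cubn, Hnf4a, Ret and Sox9 lost their higher calls. Their adjusted p by limma ran from 0.0558 for Lrp2 to 0.456 for Flt1, and the other paired calls of these lists held. No measured marker was at 0. The part of these shifts in the differences of replication genes was not tested.

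**Figure D5:**
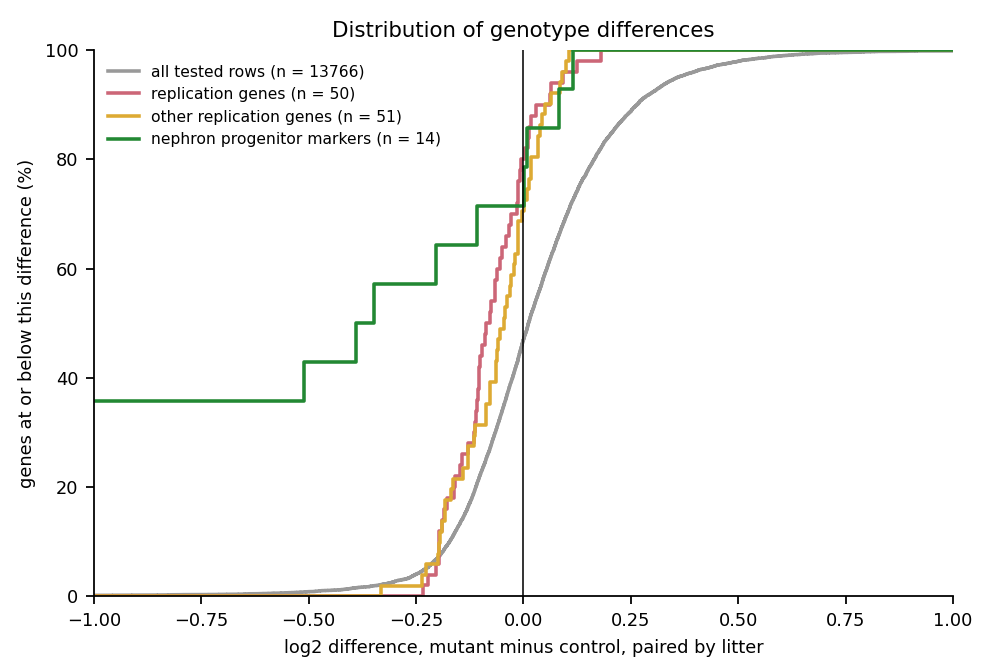
Cumulative share of genes at or below each log2 difference, mutant minus control, for all tested rows, the 50 replication genes, 51 other replication genes and 14 nephron progenitor markers. The lists were chosen with earlier results of these data known. The replication curves are steeper than the curve of all rows and lie left of it over most of the range, with medians of -0.08 and -0.04 against 0.01, and the progenitor curve lies further left (median -0.37), with 5 markers beyond the axis.

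Sites for the deleted microRNAs were present in a smaller share of the list than of the table. The 3' UTR of each gene's longest protein-coding transcript (GENCODE M21) was searched for GCACTTT (miR-17 and miR-20a), GCACCTT (miR-18a), TTTGCAC (miR-19) and GTGCAAT (miR-92a), the complements of the seeds. At least 1 site was found in 12 of the 50 genes (24%), against 33.8% of 13132 tested rows with a 3' UTR. The UTRs of the list were short, with a median of 547 bases against 1190. By family, 6 genes held a site for miR-17 and miR-20a (12% against 14.6%) and 2 for miR-18a (4% against 9.5%). For miR-19 there were 5 genes (10% against 13.3%), and for miR-92a 0 (against 7.7%). Genes of the list with a site had a median difference of -0.05 and those without -0.10, and over all rows these medians were 0.07 and -0.01. Length was not matched between the genes with and without a site.

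The sites below, with the match in capitals, belong to the reductase gene Rrm2, where a miR-17 and a miR-19 match overlap, and to the helicase genes Mcm3 and Mcm7. They lie at chr12:24713640-24713650 (plus strand), chr1:20803166-20803172 (minus strand) and chr5:138164631-138164637 (minus strand) on GRCm38.
Rrm2: ataaaattgGCACTTTGCACacacacaca
Mcm3: ccacccccagGCACTTTagtccaggaa
Mcm7: ctcccatgctGCACTTTtttattctgc

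Rrm2 and Mcm3 had differences of 0.13 and 0.06 and Mcm7 one of -0.10, none of which passed the test. Among the genes of the list with a site, Rrm2 and Mcm3 had the most positive differences, and the median was -0.05. Pold3, which holds a miR-19 site not shown above, had the most negative (-0.16, adjusted p = 0.062 by limma). The sites shown are therefore not typical of the genes with a site. A match to the seed describes letters and not regulation. By promoter, the 18 genes with an E2F match had a median difference of -0.05 and the 24 without -0.10, with 8 genes lacking a sequence in the table used.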

How the data were processed

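RNA was extracted from whole embryonic kidneys with Trizol and made into TruSeq libraries, per the labels' protocols. The authors deposited CPM values, and every value is a whole number of reads of a library total within 0.001 reads. Per the submitters' processing notes, reads were aligned with TopHat2 2.0.9 to NCBIM37, with Picard and SAMtools also named. The counting program, its annotation and the strand setting are not given in the sources used here. Of the 13965 rows 526 join several genes, among them the rows of Orc5 and Mcm7.

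A row was tested where 3 or more libraries reached 1 CPM. The test was limma (version 3.58.1, run in R 4.3.3), on log2(CPM + 0.5), with a mean-variance trend and litter as a block. This scale understates changes of low genes. Benjamini-Hochberg adjustment covered 13766 rows, and a row was called under 0.05. The labels give each library its litter. Deviations from the group means correlated at 0.619, 0.446 and 0.312 within litters and at -0.514 to 0.172 otherwise. An exact permutation test of 3 against 3 libraries cannot go below 0.1, so none is given. P values measure the spread between these libraries only.

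Lengths came from the longest protein-coding GENCODE M21 transcript, found for 98.1% of rows, and the correction used splines on length and GC content in each library. The fit was tested on simulated data, drawn with the same extra spread for every gene and no genotype trend on length. That setting differs from these data, so it lends no support to the small differences given here. The genes and lists were chosen with earlier results of these data known. Genes given in full were those called, and in each role the most abundant gene and the gene with the largest absolute difference. Values of Mcm6, Rrm2, Pola1 and Pold1 were added after they had been seen. Other scalings, filters and pseudocounts and left-out libraries were tried. Tests on counts, planned as alternatives, were not run: although the values are whole numbers of reads, the table holds too few low values for the check required before CPM is treated as counts.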

Additional observations from a re-analysis of the deposited data

How the results depend on the processing

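Pcna and Mcm10 were the only replication genes called lower with pseudocounts of 0.1 and 2, without a filter, and with a filter at 5 CPM. Median-ratio scaling called 4 lower, adding Orc5 and Pold3, and TMM scaling 3. Length and GC correction called 1 lower and 1 higher, 3 of the other replication genes and 849 of all rows. Without the litter block, 0 replication genes, 0 of the other replication genes and 77 of all rows were called, against 1574 paired. Leaving out litters or single libraries gave 0 to 6 replication genes called lower, 0 to 1 called higher, 0 to 8 of the other replication genes and 22 to 2284 of all rows. Of all rows, 304 were called without litter 1, and, unpaired, 100, 27 and 44 when control 1, 2 or 3 was dropped and 73, 34 and 22 when mutant 1, 2 or 3 was. Lower calls were 0 without litter 1 and 0 without litter 2, and 6 without litter 3. The 1 higher call without litter 2 was Pole. The median of the list stayed below 0 throughout, from -0.107 to -0.0472, the latter without mutant library 3. Over 17 alternatives the adjusted p of Pcna ranged from 0.012 to 0.92 and that of Mcm10 from 0.0169 to 0.92. The cause of these shifts was not tested, beyond fewer libraries where some were left out. Fen1, with as few as 42 reads, is the gene that depth limits. Tests on counts were not run.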
